A study of Mus musculus with 12 samples.

Results

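The 44 collagen genes on the arrays were read in ES cells and in XEN-like cells of both Sox7 genotypes. They were all genes whose name on the array has the form Col, a number, a and a number, and they make up 44 of 34836 gene names, with 69 probes. Of these, 25 genes had a probe that was well above background throughout at least 1 group, on 3 of 3 arrays, and were tested, and 19 had none and are reported as not expressed at this signal. The cells were EB3 mouse ES cells in which the coding exons of Sox7 had been replaced by a drug resistance cassette on 1 allele, Sox7 (+/-), or on both, Sox7 (-/-). All of them carried Gata6GR, the endoderm factor Gata6 fused to the ligand-binding domain of the human glucocorticoid receptor and driven by the CAG promoter from an integrated vector, so that dexamethasone (Dex) activates it. The 4 groups, of 3 arrays each, were Sox7 (+/-) and Sox7 (-/-) cells at day 4 without Dex, called ES cells, and at day 4 with Dex, called XEN-like cells (XEN stands for extraembryonic endoderm). Each genotype was represented by 1 line, the Sox7 (-/-) line having been selected with puromycin from the Sox7 (+/-) line, and Dex-treated cells without Gata6GR were not analysed here, so that Dex itself and Gata6 cannot be told apart.

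Collagens are secreted proteins whose chains wind into a helix before they leave the cell. Type IV chains form the sheet-like network of basement membranes, fibrillar collagens such as types I, II, III, V and XI form the fibres of bone, skin and cartilage, fibril-associated collagens such as types IX, XVI, XX and XXII sit on or beside those fibres, and type VI forms beaded filaments around cells. Multiplexins such as type XVIII lie in basement membranes but belong to another family. Primitive endoderm gives rise to parietal endoderm, which lays down the thick basement membrane of Reichert, rich in type IV collagen and laminin, and to visceral endoderm.

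A level is given below as the log2 of an array's background-subtracted signal relative to the 75th percentile of that array, which lay between 252.3 and 415.9 intensity units. Between 41.7% and 52.3% of the spots of an array were well above background and 0 were saturated. Differences are on the same log2 scale, with limma's standard error and an adjusted p over all 25940 probes tested, and a gene was called when its adjusted p was below 0.05 and it changed more than 2-fold. Levels of different genes are not comparable, since each probe binds with its own strength. The signal of Sox7 was at least 73.6-fold lower in XEN-like cells of the Sox7 (-/-) than of the Sox7 (+/-) line (adjusted p = 7.3e-09), with the probe well above background on 0 of 6 Sox7 (-/-) arrays. Dex lowered 5 of 6 ES cell markers in each genotype, while Klf4 rose in Sox7 (+/-) cells and was not called in Sox7 (-/-) cells, and Nanog and Sox2 were well above background on none of the 6 XEN-like arrays. It raised 4 of 6 extraembryonic endoderm markers in Sox7 (+/-) cells and 5 of 6 in Sox7 (-/-) cells. Of all genes tested, Dex raised 11.0% in Sox7 (+/-) and 14.6% in Sox7 (-/-) cells and lowered 14.1% in each. The arrays lay on 2 slides, of which slide 2 held Sox7 (-/-) XEN-like replicate 1 together with all 3 Sox7 (-/-) ES arrays, and the other 8 arrays were on slide 1. The sources of the 3 Sox7 (+/-) ES samples all carry replicate number 1, nothing says that any replicates were separate cultures, and p-values therefore measure only the spread between these arrays, which may be technical.

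Promoters are shown for the genes on which the results turn, from RefSeq on GRCm38.p6, which is another build than the mm9 of the probe positions. Col4a1 and Col4a2 lie head to head on chromosome 8, and their annotated transcripts overlap by 22 bases, from 11312805 to 11312826. The 30 bases of the forward strand around this overlap, chr8:11312801-11312830, are printed with the overlap in capitals.

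Col4a1 and Col4a2: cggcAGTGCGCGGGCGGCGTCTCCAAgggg

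Col6a1 and Col18a1 are neighbours on chromosome 10 that moved in opposite directions with Dex, and Col27a1 is the fibrillar collagen that rose. The 250 bases before their annotated starts are chr10:76726045-76726294 (minus strand) for Col6a1, chr4:63215162-63215411 (plus strand) for Col27a1 and chr10:77166531-77166780 (minus strand) for Col18a1, the outer of 2 annotated starts. Capitals mark a GATA hexamer, AGATAA or AGATAG or TGATAA or TGATAG, searched on both strands and counted together as 1 motif.

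Col6a1: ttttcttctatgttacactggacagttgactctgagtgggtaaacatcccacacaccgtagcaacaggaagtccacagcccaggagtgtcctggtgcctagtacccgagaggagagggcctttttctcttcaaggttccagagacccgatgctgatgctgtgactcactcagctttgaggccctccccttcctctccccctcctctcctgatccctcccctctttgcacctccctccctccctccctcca

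Col27a1: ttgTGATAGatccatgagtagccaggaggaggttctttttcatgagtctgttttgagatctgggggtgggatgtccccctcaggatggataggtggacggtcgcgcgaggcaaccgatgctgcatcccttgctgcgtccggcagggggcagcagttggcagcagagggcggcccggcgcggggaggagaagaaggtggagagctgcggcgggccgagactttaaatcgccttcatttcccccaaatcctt

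Col18a1: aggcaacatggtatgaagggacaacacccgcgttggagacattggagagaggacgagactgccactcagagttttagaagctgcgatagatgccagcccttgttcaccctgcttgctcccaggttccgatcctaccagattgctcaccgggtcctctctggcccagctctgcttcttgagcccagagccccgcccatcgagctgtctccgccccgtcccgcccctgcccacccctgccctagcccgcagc

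Over the whole 300-base windows, from 250 bases before to 50 after a start, 35 of the 44 collagen genes had 38 windows, and 6 of these windows held a hexamer. Of all 32851 windows, 29.8% held one. Among the windows of the 6 collagen genes that rose with Dex in both genotypes, 1 of 7 held a hexamer, that of Col27a1, and among those of 8 genes that fell in both, 0 of 9. These letters were not found in the windows of Col4a1, Col4a2, Col6a1 and Col18a1, which says nothing about sites elsewhere.

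The first comparison asked which collagen genes change when Gata6GR is activated. Dex raised 6 of the 25 tested collagen genes and lowered 14 in Sox7 (+/-) cells, beside 11.0% of all 18992 genes tested that rose and 14.1% that fell. In Sox7 (-/-) cells 6 were higher, beside 14.6% of all genes, and 12 lower, beside 14.1%. The same 6 genes rose in both genotypes, Col4a1, Col4a2, Col6a1, Col6a2, Col23a1 and Col27a1, and 12 fell in both. The share of all genes called in both genotypes was not counted. The median log2 change of the tested collagen genes was -1.49 in Sox7 (+/-) and -1.02 in Sox7 (-/-) cells, beside 0.16 and 0.07 for all genes tested. These counts and medians are a description, since only 9 of the 25 genes were well above background on all 12 arrays. A gene that passed the filter in 1 state alone was thereby more likely to differ. With the normexp background correction, under which differences of dim probes came out smaller, 8 genes fell in Sox7 (+/-) and 6 in Sox7 (-/-) cells. The falls of Col4a5, Col5a3 and Col26a1 were then not called in Sox7 (+/-) cells, those of Col2a1, Col7a1 and Col22a1 not in Sox7 (-/-) cells, and those of Col8a2, Col11a1 and Col13a1 in neither. In every called Dex response the ES and XEN-like arrays of the genotype did not overlap, which the call rule itself favours, so it adds no support. In RNA from whole cultures, fewer cells of a type and less RNA per cell cannot be told apart.

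**Figure D1:**
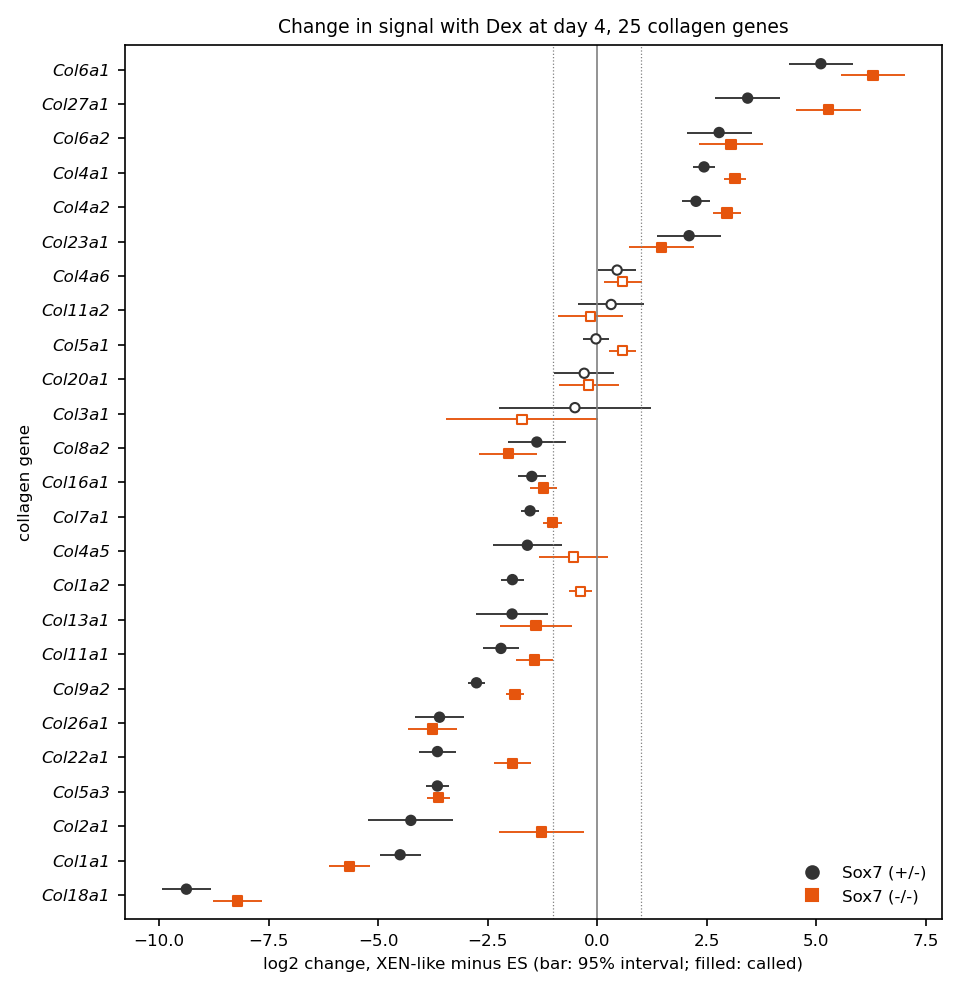
Fitted log2 change with Dex (x axis, XEN-like minus ES) of each tested collagen gene (y axis), with circles for Sox7 (+/-) and squares for Sox7 (-/-) cells, bars for 95% intervals, filled symbols for called changes and dotted lines at 2-fold. The 6 genes that rose lie to the right in both genotypes, from Col23a1 at 2.10 and 1.47 to Col6a1 at 5.11 and 6.30, and the fitted values of Col18a1 are -9.38 and -8.21. Where a gene was not well above background in 1 state the fitted value is not a bound.

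Of the type IV chains of the basement membrane network, Col4a1 and Col4a2 rose with Dex in both genotypes. Col4a1 was read by a probe on chromosome 8 from 11199009 to 11199068 (mm9, minus strand), where exon and UTR were not determined. Col4a1 was at 5.62, 5.68 and 5.46 in Sox7 (+/-) ES cells and, after Dex, at 8.13, 8.19 and 7.75. Cells lacking Sox7 gave 4.84, 4.90 and 4.88 before and 8.05, 7.97 and 8.04 after Dex. All 6 XEN-like arrays lay above all 6 ES arrays. The rise was 5.42-fold in Sox7 (+/-) cells (log2 change 2.44, standard error 0.11, adjusted p = 2.8e-08) and 8.84-fold in Sox7 (-/-) cells (log2 change 3.14, standard error 0.11, adjusted p = 3.5e-09). Col4a2, which encodes the partner chain of the same molecule, was read on chromosome 8 from 11448840 to 11448899 (plus strand), 249.8 kb from the Col4a1 probe. Col4a2 was at 5.40, 5.46 and 5.38 in Sox7 (+/-) ES cells and, after Dex, at 7.82, 7.92 and 7.26. Without Sox7 the values were 4.64, 4.68 and 4.68 in ES and 7.68, 7.66 and 7.56 in XEN-like cells. Here too the XEN-like and ES arrays did not overlap, and Sox7 (+/-) XEN-like replicate 3 was the lowest of the 6 XEN-like arrays for both genes. Col4a2 rose 4.77-fold in Sox7 (+/-) cells (log2 change 2.26, standard error 0.14, adjusted p = 3.3e-07) and 7.81-fold in Sox7 (-/-) cells (log2 change 2.96, standard error 0.14, adjusted p = 3.3e-08). Parietal endoderm markers moved with these chains. With Dex, 5 of 6 of them rose in Sox7 (+/-) and 4 of 6 in Sox7 (-/-) cells, beside 11.0% and 14.6% of all genes. Their mean level lay between 3.59 and 3.71 in Sox7 (+/-) ES and 6.09 and 6.15 in Sox7 (+/-) XEN-like cells. It lay between 2.56 and 2.62 in Sox7 (-/-) ES and 5.54 and 5.61 in Sox7 (-/-) XEN-like cells. Of the 5 visceral endoderm markers tested, 1 rose and 3 fell with Dex in Sox7 (+/-) cells, where 14.1% of all genes fell. Among these falls was that of Apob, which was above background in Sox7 (+/-) ES cells alone. The filter thus favoured its fall there, and in Sox7 (-/-) cells it could not measurably fall. In Sox7 (-/-) cells 4 of the 5 tested markers rose and 0 fell. Their mean level lay between -0.47 and -0.30 in Sox7 (+/-) ES and -0.62 and -0.40 in Sox7 (+/-) XEN-like cells, and between -1.43 and -1.29 in Sox7 (-/-) ES and 0.50 and 0.57 in Sox7 (-/-) XEN-like cells. The part of either list's cells in the rise was not tested.

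The other type IV chains did not follow. Col4a5 and Col4a6, paired head to head on chromosome X with 1342 bases between their annotated starts on GRCm38.p6, encode chains of basement membranes of kidney and smooth muscle. Col4a5 was at -2.85, -2.46 and -2.51 in Sox7 (+/-) ES cells and, after Dex, at -3.62, -3.95 and -5.04. The ES arrays of the Sox7 (-/-) line gave -3.52, -2.66 and -3.46 and its XEN-like arrays -3.52, -4.07 and -3.67. It was well above background on the 3 Sox7 (+/-) ES arrays, on 1 of 3 Sox7 (-/-) ES arrays and on none of the XEN-like arrays. It thus passed the filter through Sox7 (+/-) ES cells alone, which favours a fall there. It was at least 1.74-fold lower in Sox7 (+/-) XEN-like than ES cells (adjusted p = 0.0028), and in Sox7 (-/-) cells the change was not called (adjusted p = 0.2). The difference between these responses, 1.05 (95% interval -0.06 to 2.16, adjusted p = 0.15), was not past the threshold. Col4a6, above background on all 12 arrays, was at -3.16, -3.18 and -2.84 in Sox7 (+/-) ES cells and at -2.67, -3.04 and -2.12 in Sox7 (+/-) XEN-like cells. Its Sox7 (-/-) values were -3.25, -3.21 and -3.20 without and -2.77, -2.55 and -2.60 with Dex. The Sox7 (+/-) groups overlapped, and neither change passed both thresholds (log2 change 0.45, adjusted p = 0.064, and 0.58, adjusted p = 0.023). Col4a3 was above background on 0 of 12 arrays and Col4a4 on at most 4.

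**Figure D2:**
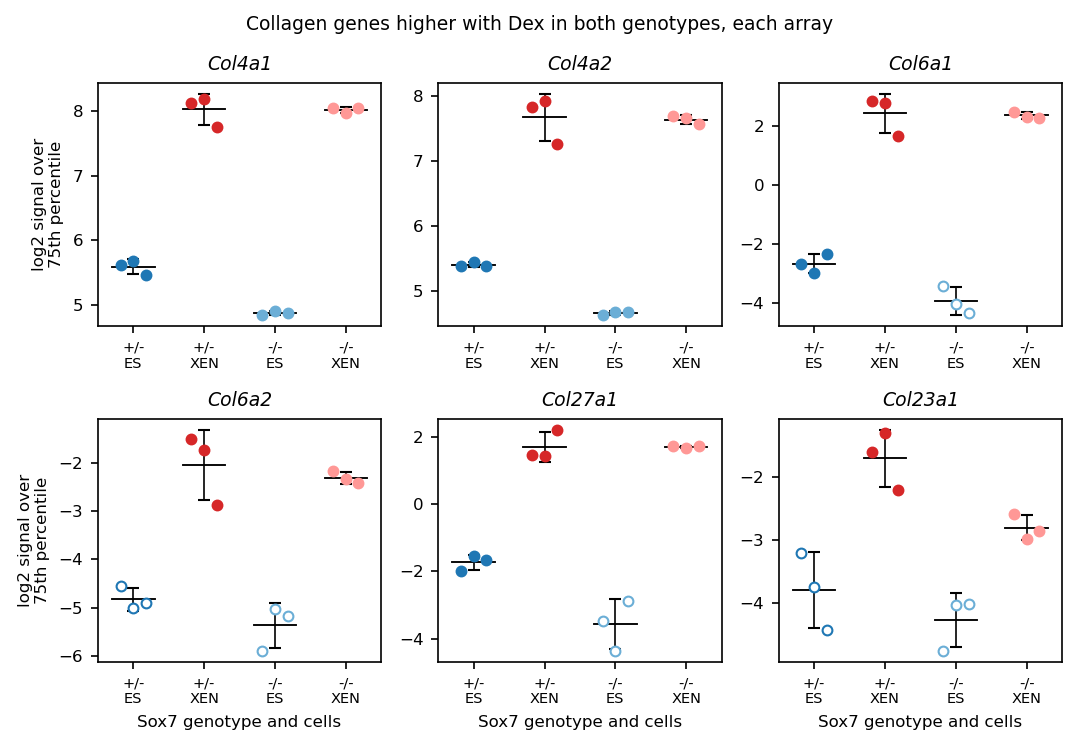
Level on each array (y axis, log2 signal over the array's 75th percentile) of the 6 collagen genes that rose with Dex, by genotype and cells (x axis), with 3 points for the 3 arrays of a group and black lines for mean and SD. Filled points are groups in which all 3 arrays were well above background and open points the others. In each panel the XEN-like arrays of a genotype lie above its ES arrays, and the XEN-like groups of the genotypes overlap in 5 panels, all but that of Col23a1.

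Of the type VI chains, Col6a1 and Col6a2 rose from low levels. Col6a1, which encodes an obligatory chain of the beaded filaments, was read on chromosome 10 from 76171538 to 76171597 (mm9, minus strand). Col6a1 was at -2.68, -2.98 and -2.34 in Sox7 (+/-) ES cells and, after Dex, at 2.85, 2.79 and 1.68. For Sox7 (-/-) cells the levels were -3.41, -4.04 and -4.34 before Dex and 2.49, 2.32 and 2.30 with it. The XEN-like arrays were all above the ES arrays, with Sox7 (+/-) XEN-like replicate 3 the lowest of them. The rise was 34.4-fold in Sox7 (+/-) cells (log2 change 5.11, standard error 0.32, adjusted p = 3.4e-07) and at least 55.4-fold in Sox7 (-/-) cells (adjusted p = 5.5e-08), whose ES arrays were not above background. Col6a2 was at -4.55, -5.01 and -4.90 in Sox7 (+/-) ES cells and, after Dex, at -1.52, -1.73 and -2.87. On the Sox7 (-/-) arrays it was at -5.89, -5.03 and -5.17 in ES and at -2.17, -2.34 and -2.42 in XEN-like cells. Col6a2 encodes the second chain of the same filament and was above background on all 6 XEN-like and on 0 of 6 ES arrays. It was at least 3.92-fold higher with Dex in Sox7 (+/-) cells (adjusted p = 4.0e-05) and at least 2.23-fold in Sox7 (-/-) cells (adjusted p = 1.6e-05), the latter just under 2-fold with the normexp background correction (log2 change 0.98). In the deposited table the rise of Col6a2 in Sox7 (+/-) cells was also under 2-fold (log2 change 0.92). The other chains of type VI, Col6a3, Col6a4, Col6a5 and Col6a6, had no probe above background on all 3 arrays of a group and were not detectable at this signal.

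The other 2 genes that rose belong to other families. Col27a1, a fibrillar collagen of the growing cartilage matrix, was read on chromosome 4 from 62995485 to 62995544 (mm9, plus strand). Col27a1 was at -1.98, -1.54 and -1.66 in Sox7 (+/-) ES cells and, after Dex, at 1.46, 1.44 and 2.22. Cells lacking Sox7 gave -3.47, -4.36 and -2.88 before and 1.74, 1.68 and 1.73 after Dex. It was above background on all arrays except 2 of the 3 Sox7 (-/-) ES arrays, and no XEN-like array overlapped an ES array. The rise was 10.8-fold in Sox7 (+/-) cells (log2 change 3.43, standard error 0.33, adjusted p = 8.3e-06) and 39-fold in Sox7 (-/-) cells (log2 change 5.29, standard error 0.33, adjusted p = 2.4e-07), the latter against an ES group with 1 array above background. Col23a1 was at -3.22, -3.74 and -4.43 in Sox7 (+/-) ES cells and, after Dex, at -1.60, -1.30 and -2.20. Without Sox7 the values were -4.77, -4.04 and -4.02 in ES and -2.58, -2.98 and -2.85 in XEN-like cells. Col23a1 encodes a transmembrane collagen and was above background on all XEN-like arrays and on 1 of 6 ES arrays. It rose 4.28-fold in Sox7 (+/-) cells (log2 change 2.10, standard error 0.33, adjusted p = 3.0e-04) and at least 1.58-fold in Sox7 (-/-) cells (adjusted p = 0.0027). Col23a1 had 3 probes, of which this one was kept. With the normexp background correction its log2 changes, 0.89 and 0.40, were under 2-fold.

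Col18a1, the multiplexin from which endostatin is cut, fell with Dex in both genotypes. The gene was read on chromosome 10 from 76514926 to 76514985 (mm9, minus strand), 343.4 kb from the Col6a1 probe. Col18a1 was at 5.27, 5.14 and 5.42 in Sox7 (+/-) ES cells and, after Dex, at -3.97, -4.62 and -3.71. The ES arrays of the Sox7 (-/-) line gave 4.67, 4.61 and 4.61 and its XEN-like arrays -3.30, -4.11 and -3.32. Its XEN-like values lay near the floor, above background on 0 of 3 Sox7 (+/-) and 1 of 3 Sox7 (-/-) arrays. The fall was at least 413-fold in Sox7 (+/-) cells (adjusted p = 8.2e-10) and 296-fold in Sox7 (-/-) cells (log2 change -8.21, standard error 0.25, adjusted p = 1.4e-09). A second probe for Col18a1 was at least 306-fold and 158-fold lower in the same comparisons. On chromosome 10 the adjacent genes Col6a2 and Col6a1, 112.6 kb apart, thus rose while the next collagen gene fell.

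Of the 9 fibrillar collagens tested, 1 (Col27a1) rose in both genotypes, 5 fell in Sox7 (+/-) and 4 in Sox7 (-/-) cells. Of all genes, 11.0% rose in Sox7 (+/-) and 14.6% in Sox7 (-/-) cells, near the share of this 1 rise, and 14.1% fell in each. Col1a1 and Col1a2 encode the chains of type I collagen, the main collagen of bone and skin. Col1a1 was read on chromosome 11 from 94813115 to 94813174 (mm9, plus strand). Col1a1 was at -0.42, -0.12 and -0.06 in Sox7 (+/-) ES cells and, after Dex, at -4.90, -4.74 and -4.45. For Sox7 (-/-) cells the levels were 0.79, 0.84 and 1.04 before Dex and -4.58, -5.28 and -4.42 with it. It was above background on all 6 ES and on 0 of 6 XEN-like arrays, at least 9.26-fold lower with Dex in Sox7 (+/-) cells (adjusted p = 3.6e-08) and at least 24.8-fold lower in Sox7 (-/-) cells (adjusted p = 5.2e-09). Col1a2 was at 0.08, 0.12 and 0.18 in Sox7 (+/-) ES cells and, after Dex, at -1.92, -1.95 and -1.55. On the Sox7 (-/-) arrays it was at -1.26, -1.33 and -1.13 in ES and at -1.76, -1.53 and -1.57 in XEN-like cells. All 12 arrays were above background for Col1a2. It fell 3.83-fold in Sox7 (+/-) cells (log2 change -1.94, standard error 0.11, adjusted p = 1.9e-07), while in Sox7 (-/-) cells the log2 change was -0.38 (adjusted p = 0.013), under the 2-fold threshold.

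Col2a1, the collagen of cartilage and notochord, was read on chromosome 15 from 97806071 to 97806130 (mm9, minus strand). Col2a1 was at 0.62, 0.75 and 0.81 in Sox7 (+/-) ES cells and, after Dex, at -2.27, -4.19 and -4.12. Cells lacking Sox7 gave -1.86, -1.74 and -1.99 before and -2.72, -3.60 and -3.08 after Dex. Sox7 (+/-) XEN-like replicate 1 stood above both other arrays of its group, and 3 of 6 XEN-like arrays were above background. It fell 19.1-fold in Sox7 (+/-) cells (log2 change -4.25, standard error 0.44, adjusted p = 1.3e-05) and 2.41-fold in Sox7 (-/-) cells (log2 change -1.27, standard error 0.44, adjusted p = 0.026). The second of these calls was lost with the slide as a block (log2 change -0.86, adjusted p = 0.28), and without Sox7 (-/-) ES replicate 1 or 2 or Sox7 (-/-) XEN-like replicate 2 or 3, at log2 changes between -1.30 and -1.04. Col5a3 was at -1.47, -1.50 and -1.50 in Sox7 (+/-) ES cells and, after Dex, at -5.33, -5.06 and -5.02. Without Sox7 the values were -2.02, -1.84 and -2.08 in ES and -5.38, -5.71 and -5.72 in XEN-like cells. Col5a3, a chain of type V collagen, was above background on every ES and on no XEN-like array. It was at least 3.79-fold lower with Dex in the Sox7 (+/-) line, and at least 3.39-fold in the Sox7 (-/-) line (adjusted p = 2.3e-09 and 1.7e-09). Col11a1 was at -2.85, -2.67 and -2.77 in Sox7 (+/-) ES cells and, after Dex, at -4.64, -5.36 and -4.87. The ES arrays of the Sox7 (-/-) line gave -3.11, -2.97 and -3.10 and its XEN-like arrays -4.40, -4.25 and -4.83. Col11a1, a minor chain of cartilage fibres, was likewise above background in ES cells only, at least 1.57-fold lower with Dex in the Sox7 (+/-) line, and at least 1.6-fold in the Sox7 (-/-) line (adjusted p = 3.0e-06 and 6.0e-05).

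Fibroblasts and chondrocytes are the usual makers of fibrillar collagen, and their markers were set beside these values. Of 9 fibroblast and mesenchyme markers, Prrx1, Dcn, Lum and Postn had no probe above background on all 3 arrays of a group, and Dcn and Lum were above background on no array. The mean level of the list lay between -2.73 and -2.54 in Sox7 (+/-) ES, -4.07 and -3.87 in Sox7 (+/-) XEN-like, -3.13 and -2.82 in Sox7 (-/-) ES and -4.29 and -3.88 in Sox7 (-/-) XEN-like cells. With Dex, 4 of its 5 tested members fell in Sox7 (+/-) cells, and in Sox7 (-/-) cells 3 fell and 1 rose. Of all genes, 14.1% fell in each genotype and 14.6% rose in Sox7 (-/-) cells. Thy1, Pdgfrb and Twist2 were above background on no XEN-like array, so they passed the filter through ES cells alone, Twist2 only through Sox7 (+/-) ES cells. The fall of Twist2 in Sox7 (-/-) cells thus compares values below background on both sides. Of 5 chondrocyte markers, 2 were tested, of which Sox9 rose and Comp fell in both genotypes, and the mean level of the list stayed between -4.24 and -3.42 on all 12 arrays. Hapln1 was above background on no array. The part of these cells in the falls was not tested.

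**Figure D3:**
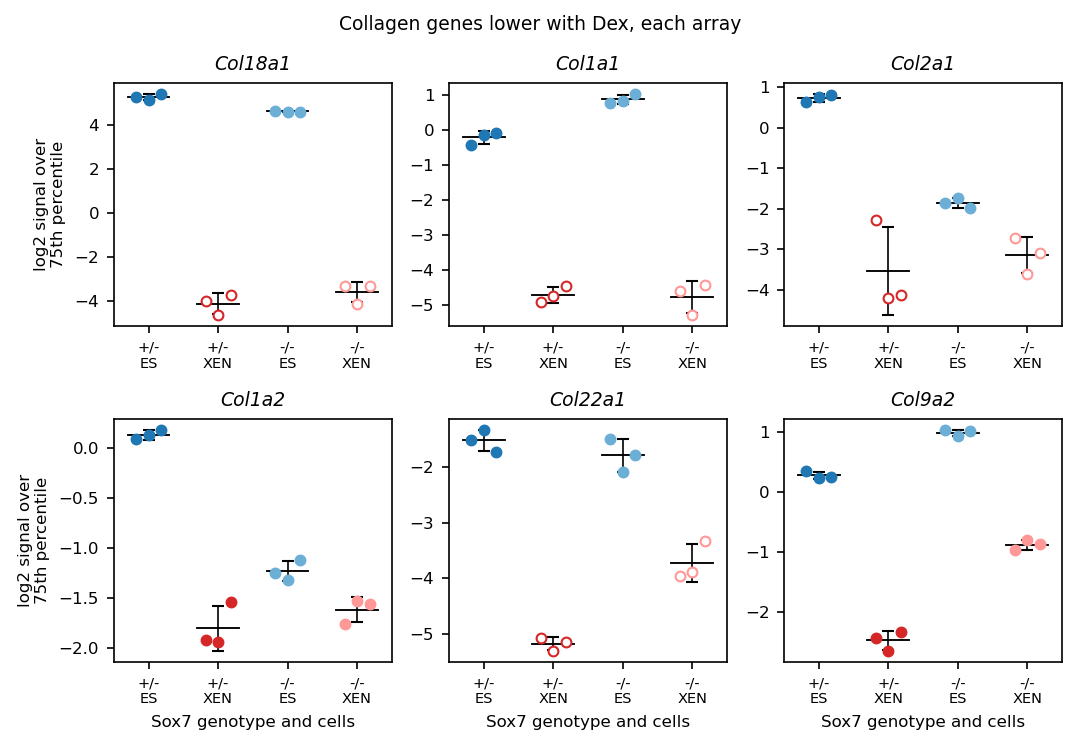
Level on each array (y axis, log2 signal over the array's 75th percentile) of 6 collagen genes that fell with Dex, by genotype and cells (x axis), with 3 points for the 3 arrays of a group and black lines for mean and SD. Filled points are groups in which all 3 arrays were well above background. The panels of Col2a1 and Col1a2 show Sox7 (-/-) ES cells below Sox7 (+/-) ES cells, and in those of Col9a2 and Col22a1 the Sox7 (-/-) XEN-like arrays lie above the Sox7 (+/-) ones.

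Among the 4 fibril-associated collagens tested, 3 fell in both genotypes, beside 14.1% of all genes that fell in each. Col9a2 was at 0.35, 0.23 and 0.25 in Sox7 (+/-) ES cells and, after Dex, at -2.44, -2.65 and -2.35. For Sox7 (-/-) cells the levels were 1.03, 0.93 and 1.01 before Dex and -0.98, -0.81 and -0.88 with it. Col9a2 encodes a chain of the type IX collagen of cartilage and was above background on all 12 arrays. It fell 6.76-fold in Sox7 (+/-) (log2 change -2.76, standard error 0.09, adjusted p = 2.4e-09) and 3.67-fold in Sox7 (-/-) cells (log2 change -1.88, standard error 0.09, adjusted p = 2.6e-08), while the other type IX chains, Col9a1 and Col9a3, were not expressed by the filter. Col16a1 was at 0.18, 0.39 and 0.29 in Sox7 (+/-) ES cells and, after Dex, at -1.28, -1.29 and -1.05. On the Sox7 (-/-) arrays it was at 0.48, 0.56 and 0.39 in ES and at -0.40, -0.97 and -0.88 in XEN-like cells. Col16a1 was also above background throughout and fell 2.82-fold and 2.34-fold (adjusted p = 7.3e-06 and 2.6e-05). Its fall in Sox7 (-/-) cells went under 2-fold with the slide as a block (log2 change -0.88). Col22a1 was at -1.51, -1.34 and -1.73 in Sox7 (+/-) ES cells and, after Dex, at -5.08, -5.30 and -5.14. Cells lacking Sox7 gave -1.50, -2.09 and -1.78 before and -3.97, -3.89 and -3.33 after Dex. Col22a1, known from the muscle-tendon junction, was above background on all ES arrays and on 1 of 6 XEN-like arrays. It was at least 3.7-fold lower with Dex in Sox7 (+/-) (adjusted p = 8.6e-08) and 3.83-fold lower in Sox7 (-/-) cells (log2 change -1.94, standard error 0.19, adjusted p = 8.3e-06).

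Of the collagens outside these families, Col7a1, the anchoring fibril collagen of skin, was expressed on all 12 arrays. Col7a1 was at 1.28, 1.38 and 1.27 in Sox7 (+/-) ES cells and, after Dex, at -0.28, -0.29 and -0.09. Without Sox7 the values were 0.23, 0.00 and 0.25 in ES and -0.79, -1.0 and -0.81 in XEN-like cells. It fell 2.89-fold in Sox7 (+/-) (log2 change -1.53, standard error 0.09, adjusted p = 2.8e-07) and 2.03-fold in Sox7 (-/-) cells (log2 change -1.02, standard error 0.09, adjusted p = 4.8e-06), the latter so near the threshold that the call was lost with the slide as a block (log2 change -0.95, adjusted p = 3.5e-04) and without Sox7 (-/-) ES replicate 1 or 3 or Sox7 (-/-) XEN-like replicate 2 (as small as -0.96). Col26a1 was at -1.51, -1.39 and -1.35 in Sox7 (+/-) ES cells and, after Dex, at -4.87, -5.11 and -5.07. The ES arrays of the Sox7 (-/-) line gave -1.26, -1.46 and -1.77 and its XEN-like arrays -5.47, -4.58 and -5.73. Col26a1 was above background on all ES and on no XEN-like arrays, at least 3.99-fold lower with Dex in the Sox7 (+/-) line, and at least 4.73-fold in the Sox7 (-/-) line (adjusted p = 6.9e-07 and 3.9e-07). Col8a2 was at -2.86, -3.08 and -3.07 in Sox7 (+/-) ES cells and, after Dex, at -4.74, -4.67 and -3.73. For Sox7 (-/-) cells the levels were -3.15, -2.86 and -2.57 before Dex and -4.71, -5.42 and -4.55 with it. Col8a2, a network-forming collagen of the cornea, was at least 1.33-fold and 1.84-fold lower (adjusted p = 0.0023 and 1.4e-04). Col13a1 was at -2.98, -3.16 and -2.89 in Sox7 (+/-) ES cells and, after Dex, at -4.69, -5.11 and -5.07. On the Sox7 (-/-) arrays it was at -3.55, -3.42 and -3.24 in ES and at -4.53, -5.87 and -4.01 in XEN-like cells. Col13a1, a transmembrane collagen, was above background only on the 3 Sox7 (+/-) ES arrays, and at least 1.32-fold lower with Dex in Sox7 (+/-) cells (adjusted p = 0.0011). The gene passed the filter through that group alone, which favours a fall there, and the bound is under 2-fold. Its call in Sox7 (-/-) cells (adjusted p = 0.0071) compares values below background on both sides, so no fold is given, and it was lost with the slide as a block (adjusted p = 0.11) and without Sox7 (-/-) XEN-like replicate 2 (log2 change -0.86).

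The next comparison asked whether XEN-like cells that lack Sox7 differ in their collagens from those that keep 1 allele. In that state 2 of the 25 genes were higher in Sox7 (-/-) XEN-like cells, beside 4.15% of all genes tested, 1 was lower, beside 3.41%, and 22 were not called. Col9a2 was 3.01-fold higher in Sox7 (-/-) XEN-like cells (log2 difference 1.59, standard error 0.09, adjusted p = 1.4e-06), with no overlap between the groups, and 0.83 with the normexp background correction, under 2-fold. Col22a1 was called higher (adjusted p = 4.0e-04), but it was above background on 0 of 3 Sox7 (+/-) and 1 of 3 Sox7 (-/-) arrays and its bound gives no fold. Col23a1 was 2.15-fold lower in Sox7 (-/-) cells (log2 difference -1.11, standard error 0.33, adjusted p = 0.027), a call lost within slide 1 alone, where 2 Sox7 (-/-) and 3 Sox7 (+/-) arrays remained (log2 difference -1.22, adjusted p = 0.064). It was also lost without Sox7 (+/-) XEN-like replicate 1 or 2 or without Sox7 (-/-) XEN-like replicate 2 or 3, at log2 differences as small as -0.91. The second Col18a1 probe was higher in Sox7 (-/-) XEN-like cells (at least 1.12-fold, adjusted p = 8.1e-05), while the first was not called (adjusted p = 0.14).

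Of the 6 genes that rose with Dex, 5 were not called between the genotypes in XEN-like cells. The log2 difference there, Sox7 (-/-) minus Sox7 (+/-), was -0.01 for Col4a1 (95% interval -0.25 to 0.24) and -0.03 for Col4a2 (-0.35 to 0.28). For Col6a1 it was -0.07 (-0.79 to 0.65), for Col6a2 -0.27 (-1.01 to 0.47) and for Col27a1 0.01 (-0.73 to 0.75). Visceral endoderm markers moved with genotype in the same cells. Of 7, 5 were tested and 4 were higher in Sox7 (-/-) XEN-like cells, Ttr, Hnf4a, Cubn and Amn, beside 4.15% of all genes. The mean level of the list lay between -0.62 and -0.40 on the Sox7 (+/-) and between 0.50 and 0.57 on the Sox7 (-/-) XEN-like arrays. Afp, Apoa1 and Apob were above background on no XEN-like array. The mean level of 6 ES cell markers lay between -0.98 and -0.88 on the Sox7 (+/-) and between -0.09 and 0.52 on the Sox7 (-/-) XEN-like arrays, with Zfp42 and Esrrb higher in Sox7 (-/-) cells. The part of either list's cells in the collagen differences was not tested.

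**Figure D4:**
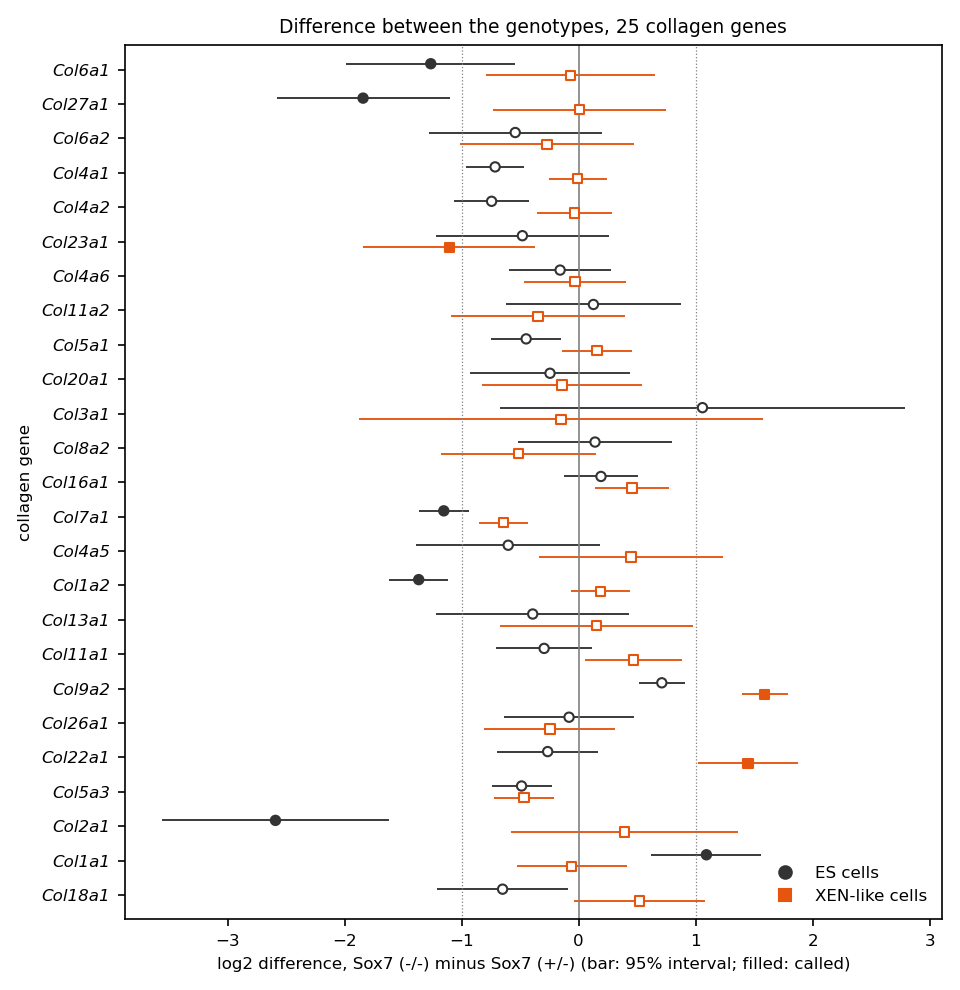
Fitted log2 difference between the genotypes (x axis, Sox7 (-/-) minus Sox7 (+/-)) of each tested collagen gene (y axis, in the order of the plot of Dex responses), with circles for ES cells and squares for XEN-like cells, bars for 95% intervals, filled symbols for called differences and dotted lines at 2-fold. Filled circles to the left are Col1a2, Col27a1, Col2a1, Col6a1 and Col7a1, and the squares of Col4a1, Col4a2, Col6a1 and Col27a1 lie near 0, from -0.07 to 0.01.

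In ES cells without Dex, 5 of the 25 collagen genes had a lower level in the Sox7 (-/-) line, beside 6.63% of all genes tested, and 1 had a higher level, beside 1.97%. The 3 Sox7 (+/-) and 3 Sox7 (-/-) ES arrays lay on different slides, so each of these differences is also given with the slide as a block, which is estimated from the Sox7 (-/-) XEN-like arrays alone. Col2a1 was 6.03-fold lower in Sox7 (-/-) ES cells (log2 difference -2.59, standard error 0.44, adjusted p = 0.001; -3.21 with the block, adjusted p = 0.032). Col1a2 was 2.58-fold lower (log2 difference -1.37, standard error 0.11, adjusted p = 1.3e-05; -1.16 with the block, adjusted p = 0.0068). Col7a1 was 2.22-fold lower (log2 difference -1.15, standard error 0.09, adjusted p = 1.2e-05; -1.27 with the block, adjusted p = 0.0022). For none of these genes did the ES arrays of the genotypes overlap. Col27a1 was 3.59-fold lower (log2 difference -1.84, standard error 0.33, adjusted p = 0.0015) and Col6a1 at least 1.69-fold lower (adjusted p = 0.01), but with the block their adjusted p were 0.088 and 0.16. Col1a1 was 2.13-fold higher (log2 difference 1.09, standard error 0.21, adjusted p = 0.0023), opposite to its partner Col1a2, and was not called with the block (log2 difference 0.82, adjusted p = 0.2) or without Sox7 (+/-) ES replicate 1 (log2 difference 0.98). Col4a1 and Col4a2 were lower in Sox7 (-/-) ES cells by less than the 2-fold threshold (log2 difference -0.71, adjusted p = 6.4e-04, and -0.74, adjusted p = 0.0022), with no overlap between the arrays. With the normexp background correction the differences of Col1a1 (0.97), Col27a1 (-0.72) and Col6a1 (-0.38) were under 2-fold. Markers moved between the same arrays as well. In Sox7 (-/-) ES cells 3 of 6 parietal endoderm markers were lower, as were 3 of 5 tested visceral endoderm markers (Ttr, Apob and Cubn) and 2 of 5 tested fibroblast markers (Twist2 and Acta2), while 3 of 6 ES cell markers were higher (Zfp42, Esrrb and Klf4). Apob and Twist2 passed the filter through Sox7 (+/-) ES cells alone, which favours a lower level in the Sox7 (-/-) line. The part of the cells of these lists in the differences was not tested.

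Whether the Dex response itself differed between the genotypes was tested as the difference of the responses, Sox7 (-/-) minus Sox7 (+/-), which uses the same arrays as the comparisons above. It was called positive for 5 genes, beside 7.05% of all genes tested, and negative for 1, beside 3.16%. Col2a1 (log2 difference 2.98, standard error 0.62, adjusted p = 0.006) fell less in Sox7 (-/-) cells from a lower start. Col1a2 differed by 1.55 (standard error 0.16, adjusted p = 9.0e-05) and Col22a1 by 1.71 (standard error 0.27, adjusted p = 0.0014), both also falls that were smaller in Sox7 (-/-) cells. Col27a1 rose more in Sox7 (-/-) cells (1.85, adjusted p = 0.016), from a lower start. Col18a1 differed by 1.17 by its brightest probe (adjusted p = 0.035) and by 1.91 by its second probe (standard error 0.17, adjusted p = 2.7e-05), which was above background on all 3 Sox7 (-/-) XEN-like arrays, and Col1a1 by -1.15 (adjusted p = 0.018). With the slide as a block the differences of Col1a2 (1.41, adjusted p = 0.0013), Col22a1 (1.47, adjusted p = 0.016) and Col2a1 (3.39, adjusted p = 0.017) were still called, and those of Col27a1, Col18a1 and Col1a1 were not (adjusted p = 0.067, 0.052 and 0.11). Col1a1 was not above background on any XEN-like array and Col18a1 and Col22a1 on no Sox7 (+/-) XEN-like array, so the sizes for these 3 genes rest on values at the floor. Those for Col27a1 and Col2a1 rest on such values in part. Only some of the Sox7 (-/-) ES arrays were above background for Col27a1, and only some of the XEN-like arrays for Col2a1. The call of Col1a1 was also lost without Sox7 (-/-) XEN-like replicate 2 (-0.89), and that of the brightest Col18a1 probe without any one array besides Sox7 (+/-) XEN-like replicates 1 and 3 and Sox7 (-/-) XEN-like replicate 2, at differences between 0.91 and 1.24. With the normexp background correction Col2a1, Col1a2 and Col1a1 were still called, while Col18a1 (0.57), Col22a1 (0.23) and Col27a1 (0.76) were under 2-fold. The larger rises of Col4a1 and Col4a2 in Sox7 (-/-) cells, 0.71 and 0.71, had adjusted p of 0.0085 and 0.026 but stayed under 2-fold. All 5 tested visceral endoderm markers were called higher in the same difference (median 3.61), as were the fibroblast markers Twist2 and Acta2 and, of the ES cell markers, Esrrb, while Sox2 was lower. Of these, Apob and Twist2 were above background in Sox7 (+/-) ES cells alone, the group through which they passed the filter. Their response in Sox7 (-/-) cells thus compares values below background on both sides. The part of the cells of these lists in the differences was not tested.

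Besides Col4a6, 4 tested genes were called in no comparison, Col5a1, Col11a2, Col20a1 and Col3a1. Col5a1, the main chain of type V collagen, was above background on all 12 arrays at levels between -0.44 and 0.47, and in Sox7 (-/-) cells its log2 change with Dex was 0.58 (adjusted p = 0.0033). Col11a2 lay between -3.96 and -2.47 and Col20a1 between -2.61 and -1.29, with overlapping groups in every Dex response. Col3a1, the type III collagen of skin and vessels, was at -3.42, -3.05 and -2.75 in Sox7 (+/-) ES and at -4.48, -1.24 and -5.04 in Sox7 (+/-) XEN-like cells. Its Sox7 (-/-) values were -1.91, -1.77 and -2.37 without and -3.61, -4.03 and -3.56 with Dex. Sox7 (+/-) XEN-like replicate 2 thus stood far above the other 2 arrays of its group. On the same array the neighbouring fibrillar gene Col5a2 was at -1.72, against -5.49 on Sox7 (+/-) XEN-like replicate 1, and above background on no other array, while its spot on replicate 3 carried an outlier flag and was left out. Of the 9 fibroblast and mesenchyme markers, Twist1 and Acta2 were above background on that array, as on the other 2 arrays of its group. The rest, among them Dcn, Lum and Postn, were not above background on that array. Without it, no XEN-like array of either genotype was above background for Col3a1, so its genotype difference in XEN-like cells has no direction. The fall of Col3a1 with Dex in Sox7 (-/-) cells was at least 3.03-fold but not called (adjusted p = 0.075, limma). It was called with only the arrays compared, and without Sox7 (+/-) XEN-like replicate 2 or 3. The difference in ES cells (1.06) was called with only the arrays compared and without replicate 2. The fall in Sox7 (+/-) cells was called without replicate 2 (log2 change -1.68).

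The 19 collagen genes without a kept probe were Col4a3, Col4a4, Col5a2, Col24a1, Col6a3, Col6a4, Col6a5, Col6a6, Col8a1, Col10a1, Col9a1, Col9a3, Col12a1, Col14a1, Col19a1, Col15a1, Col17a1, Col25a1 and Col28a1. Of these, Col14a1 was above background on the most arrays by 1 probe, 5 of 12, and never on all 3 of a group. On the other side of the filter, Col4a5, Col11a2 and Col13a1 passed it through 1 group alone, the Sox7 (+/-) ES cells. Of the 9 fibril-associated collagens on the array, 4 were tested, of the 11 fibrillar collagens 9, and of the 6 type IV and 6 type VI chains 4 and 2.

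Genes that make, process and bind collagen were counted from 4 lists. Of 19 genes for collagen folding and secretion, 12 were higher and 0 lower with Dex in each genotype, beside 11.0% of all genes in Sox7 (+/-) and 14.6% in Sox7 (-/-) cells that were higher and 14.1% in each that were lower, with median log2 changes of 1.07 in Sox7 (+/-) and 1.37 in Sox7 (-/-) cells. The largest rises in Sox7 (+/-) cells were those of the lysyl hydroxylases Plod2 (2.64), Plod1 (2.34) and Plod3 (2.14) and of the prolyl hydroxylase chain P4ha1 (2.08). In Sox7 (-/-) cells they were those of Leprel1 (3.16), Plod2 (3.15), Plod3 (2.96) and Serpinh1, the collagen chaperone (2.70). P4ha1 was lower in Sox7 (-/-) than Sox7 (+/-) XEN-like cells (-1.37, adjusted p = 3.3e-06) and was the 1 gene of this list of 19 called there, beside 3.41% of all genes that were lower. Of the 14 genes for procollagen processing and crosslinking, 9 were tested, and 3 rose and 5 fell in each genotype (all genes: 11.0% and 14.6% higher, 14.1% lower). The crosslinking enzyme Loxl2 rose (3.53 and 4.14), while the procollagen C-proteinase enhancers Pcolce (-2.55 and -3.52) and Pcolce2 (-3.49 and -5.44) fell, and Loxl1 was at least 4.8-fold and 7.73-fold lower. Between the genotypes in XEN-like cells, Pcolce2 alone of the 9 was called, lower in Sox7 (-/-) cells, beside 3.41% of all genes. In Sox7 (-/-) ES cells 1 of the 9 was higher, beside 1.97% of all genes, and 3 were lower, beside 6.63%.

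The other components of the basement membrane moved like Col4a1 and Col4a2 in part. Of 11 such genes, 4 rose and 2 fell in Sox7 (+/-) cells, and 5 rose and 1 fell in Sox7 (-/-) cells, beside 11.0% and 14.6% of all genes that rose, and the falls were near the 14.1% of all genes. The laminin chains Lamb1 (1.81 and 2.19) and Lamc1 (2.13 and 2.26) rose, as did the linker Nid1 (3.60 and 3.09), and fibronectin, Fn1, fell (-2.92 and -4.19). Fn1 was the 1 gene of the list of 11 called between the genotypes in XEN-like cells (-1.11, adjusted p = 0.0042), beside 3.41% of all genes that were lower there. Of 10 collagen receptors, 6 were tested, and 0 rose and 4 fell in Sox7 (+/-) cells, while 1 rose and 2 fell in Sox7 (-/-) cells, the 1 rise being near the 14.6% of all genes that rose and the falls standing beside 14.1%. The integrin chain Itga11 was at least 5.98-fold and 9-fold lower with Dex and the receptor kinase Ddr2 at least 2.26-fold and 2.87-fold. Itgb1, the common beta chain, rose in Sox7 (-/-) cells (1.98). Ddr1 fell in Sox7 (+/-) cells (-2.11) and was not called in Sox7 (-/-) cells (0.15), a difference between the responses of 2.26 (adjusted p = 2.0e-04). Ddr1 was also called lower in Sox7 (-/-) than Sox7 (+/-) ES cells, whose arrays lay on different slides.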

How the data were processed

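RNA of 12 samples, 3 in each group given by the labels, was hybridised to as many Agilent mouse arrays with 1 dye. Per the file headers, the authors extracted the spots with Feature Extraction 10.7.3.1, whose processed signal, an intensity, is background-subtracted within the array and not scaled between arrays, with probe positions on mm9. The mean and background intensity of each spot and a deposited table of the whole series, whose linear intensity lies close to the mean spot signal, served for alternatives. Here the deposited intensities were put on the log2 scale and the array's 75th percentile was subtracted. Control spots and spots with an outlier flag were left out, and spots of a probe were averaged. A probe was kept, as 25940 of 55681 were, if it was well above background throughout at least 1 group. Gene names are those of the array's design, and a gene was read by its brightest kept probe. limma 3.58.1 in R 4.3.3 fitted 1 mean per group over all 12 arrays. p-values were adjusted by Benjamini-Hochberg over all probes tested. The call rule was an adjusted p under 0.05 with a change over 2-fold, and intervals are 95% intervals. A group not well above background on any of its arrays has only a bound, given as at least a fold: the brighter group's mean against the mean, per array, of the higher of the probe's own signal and the lowest signal among probes well above background. Calls use the fitted change, so the bound of a called gene can lie under 2-fold.

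The collagen genes and all lists were chosen with earlier results of these data known. By the rule for naming genes, array values are given for every collagen gene called in a comparison and for the kept type IV chains, and at most 4 genes of a partner list are named in each comparison, those with the largest called change. The script was tested on simulated data with known changes. The replicate numbers of the titles do not pair the samples, since deviations of arrays with the same number from their group means correlated between -0.05 and 0.13. Alternatives changed the background correction, the scaling, the filter, the probe, the variance model and the arrays, and added the slide or the replicate number as a block. The number of arrays limits the precision. Arrays of Dex-treated cells without Gata6GR were not analysed here.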

Additional observations from a re-analysis of the deposited data

Results flagged for a closer look

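The Dex response differed between the genotypes for 6 collagen genes by the test of the difference itself, given here as the response of Sox7 (-/-) minus that of Sox7 (+/-) cells on the log2 scale. It was 2.98 for Col2a1, 1.85 for Col27a1, 1.71 for Col22a1, 1.55 for Col1a2, 1.17 for Col18a1 and -1.15 for Col1a1, each by the gene's brightest probe. A second probe of Col18a1 gave 1.91 (adjusted p = 2.7e-05, limma). Leaving out an array ended the call of the brightest Col18a1 probe in 9 of 12 cases, that of Col1a1 without Sox7 (-/-) XEN-like replicate 2 and that of no other of these genes. The groups of 3 arrays are too small for a test of single outlying arrays.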

How the results depend on the processing

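Of 53 calls of a collagen gene in a comparison, 26 were kept under every alternative that gave the gene a value, 23 to 26 of them for each call, 27 were lost under at least 1 and 0 changed direction. Of 72 pairs not called, 24 were called under at least 1. In the order higher and lower, the counts were 6 and 14 for the Dex response of Sox7 (+/-) cells, 6 and 12 for that of Sox7 (-/-) cells, 2 and 1 for genotypes in XEN-like cells, 1 and 5 for genotypes in ES cells and 5 and 1 for the difference between the responses. With normexp 8 and 6 genes fell with Dex in Sox7 (+/-) and Sox7 (-/-) cells, 0 were higher and 0 lower in XEN-like cells, 0 higher and 3 lower in ES cells, and 2 differed positively in response. With quantile normalization 0 were lower in XEN-like cells. With spike-in scaling 0 were lower in XEN-like cells, 0 higher in ES cells, and 10 and 0 differed in response. The deposited table gave 6 falls in Sox7 (-/-) cells, 1 and 0 in XEN-like cells, 3 lower in ES cells and 0 negative differences in response. No filter gave 2 lower in XEN-like cells and 2 negative differences in response. The filter on all 12 arrays, which tests 9 collagen genes, gave 2 and 4, 2 and 3, 1 and 0, 0 and 2, and 1 and 0. Fitting only the arrays compared gave 2 higher in ES cells. The slide as a block gave 0 and 3 in ES cells and 3 and 0 for the difference between the responses, and slide 1 alone 0 lower in XEN-like cells. With no minimum fold 3 were lower in XEN-like cells, 2 higher and 9 lower in ES cells, and 10 differed positively in response. Except where the filter or the slide itself sets the genes or arrays used, the cause was not tested. Leaving out 1 array gave 6 to 6 rises and 14 to 15 falls in Sox7 (+/-) cells, 6 to 6 and 9 to 13 in Sox7 (-/-) cells, 2 to 3 and 0 to 1 in XEN-like cells, 0 to 2 and 5 to 5 in ES cells, and 4 to 6 and 0 to 1 for the difference between the responses. Without Sox7 (+/-) XEN-like replicate 2 the genotype difference of Col3a1 in XEN-like cells went from -0.15 to 1.02, and it went down to -0.88 without replicate 3, but 1.02 compares values below background in both groups and gives no direction.

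Blocking on the replicate number gave 6 and 14, 6 and 12, 2 and 1, 1 and 5, and 5 and 1, and no call of a collagen gene was lost. Against the 75th percentile, spike-in scaling moved the median log2 change of all genes by -0.49 in the Dex response of Sox7 (+/-) cells, -0.16 for genotypes in ES cells, 0.25 for genotypes in XEN-like cells and 0.40 in the difference between the responses, and the deposited table by -0.40, -0.02, 0.35 and 0.35. The share of all called genes that were higher was 43.7% in the Dex response of Sox7 (+/-) cells, against 18.9% and 19.5% on these scales, 54.9% between genotypes in XEN-like cells, against 78.6% and 91.0%, and 69.0% in the difference between the responses, against 89.8% and 89.9%. Values near background have no order, and most of the falls end there.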
